A study of Rattus norvegicus with 8 samples.

Results

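The 10 genes described here encode the neurofilament subunits Nefl, Nefm, Nefh and Ina, the tubulins Tubb3 and Tuba1a, the microtubule-associated proteins Mapt and Map2, and the growth-associated proteins Stmn2 and Gap43. They were chosen by gene name, and every probe that carries one of these names in the array files was taken. This gave 12 of the 30367 probes on the array, 2 each for Mapt and Stmn2 and 1 for each of the other 8 genes. All 12 were well above background on all 8 arrays, none of their 40 spots was saturated on any array, and all 12 were among the 23677 probes tested.

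Neurofilaments are the intermediate filaments of neurons. The light, medium and heavy subunits (Nefl, Nefm, Nefh) assemble with alpha-internexin (Ina) into long polymers that fill the axon, set its diameter and are most abundant in large myelinated axons such as those of motor neurons. Microtubules are polymers of alpha- and beta-tubulin. Tubb3 is the beta-tubulin typical of neurons, and Tuba1a is a major alpha-tubulin of the nervous system. Tau (Mapt) binds microtubules mainly in axons and Map2 mainly in dendrites, while stathmin-2 (Stmn2) binds free tubulin and is needed for axon regrowth. Gap43 is a membrane protein of growth cones that is made again when axons regenerate.

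The samples were lumbar spinal cord (segments L6S1) of 12-week-old male Wistar rats, 4 put through water avoidance (WA) stress on 10 days and 4 controls. In a session of WA stress, the rat stands on a small platform surrounded by water. Tissue of stressed rats was taken 24 h after the last session, the meninges having been removed, and the RNA of each rat was labelled with Cy3 and hybridised to 1 Agilent rat gene expression array. The comparison asks which transcripts differ in the cord of rats in which this stress causes visceral hyperalgesia. The whole segment was measured, so fewer cells of a type and less RNA per cell cannot be told apart.

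Levels are log2 signals from which the 75th percentile of that array was subtracted, so that 0 is the brightness of the 75th percentile and each unit is a doubling. Differences are stressed minus control on this scale. That percentile was at a processed signal of 1739 to 1932 on the stressed arrays and 1837 to 2332 on the control arrays. The 8 arrays lay on 1 slide, the stressed rats in row 1 and the controls in row 2, so row and group cannot be told apart. Control replicate 2 stood apart from the other controls. Its median difference between the 5′ and the 3′ probe of a transcript, centred over the arrays, was 0.22, beside 0.09 to 0.17 on the stressed arrays and −0.30 to −0.18 on the other control arrays, and on the first principal component, with 54.2% of the variance, it also lay on the side of the stressed arrays. Whether the quality of its RNA, its labelling or an exchanged sample has a part in this was not tested. Differences of the 12 probes that it moves, and the counts of the gene lists, are therefore also given without control replicate 2.

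Each probe is a single strand of 60 bases, and its signal is read only at that place in the transcript. The probes of Nefl and Nefh are shown because their signals differed most between arrays, and the 5′ probes of Mapt and Stmn2 because each has a 3′ partner that is compared with it below. Capitals mark the longest run of bases that another probe of the array also holds, as a measure of how distinct the probe is. The sequences, positions and strands are those of the array files, on the rn4 assembly, and exons and UTRs were not analysed here because no annotation of that assembly was used.
Nefl probe, chr15:47638898-47638957, plus strand, from base 1287 of the transcript: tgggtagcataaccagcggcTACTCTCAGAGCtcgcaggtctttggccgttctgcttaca
Nefh probe, chr14:85595648-85595707, minus strand, from base 2924 of the transcript: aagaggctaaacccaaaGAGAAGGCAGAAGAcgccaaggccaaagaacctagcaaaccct
Mapt 5′ probe, chr10:93504770-93504829, plus strand, from base 1191 of the transcript: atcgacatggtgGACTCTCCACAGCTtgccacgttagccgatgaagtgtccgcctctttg
Stmn2 5′ probe, chr2:95290726-95290785, minus strand, from base 445 of the transcript: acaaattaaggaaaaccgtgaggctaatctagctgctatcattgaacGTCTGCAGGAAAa

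The shared run was 12 bases for Nefl and for the 5′ probe of Stmn2, and 14 bases for Nefh and for the 5′ probe of Mapt. Over all 12 probes it was 12 to 14 bases, except for Tuba1a, which shared 29 bases with a probe that has no gene name. Signal of a related transcript on the Tuba1a probe can thus not be told apart from its own. For the other probes, likeness to other transcripts was not tested. The probes of the other genes began at base 2733 of the transcript (Nefm), 3891 (Ina), 1702 (Tubb3), 1507 (Tuba1a), 5644 (Map2) and 831 (Gap43), and the 3′ probes at 5062 (Mapt) and 1420 (Stmn2). Nefl and Nefm lie near each other on chromosome 15, their probes being read from opposite strands. Nefm and Tuba1a were each measured by 10 spots an array and the other probes by 2, and the median SD between spots of 1 probe on 1 array was 0.01 to 0.06.

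All 10 genes gave bright signals in the lumbar cord. By mean signal over the 8 arrays, Nefm ranked 29 and Tuba1a 33 among the 23677 tested probes, both at the 99.9th percentile. Nefl was at percentile 97.7, Nefh at 95.8 and Tubb3 at 95.8. The 5′ and 3′ probes were at 97.1 and 95.5 for Mapt and at 97.6 and 96.3 for Stmn2. Ina was at 91.2, Gap43 at 88.5 and Map2 at 82.2, the dimmest of the 12. Probes differ in affinity, so these are ranks of brightness and not of transcript number. The gap between the 2 probes of Mapt, and that between the 2 of Stmn2, shows how far probes for 1 transcript can lie apart.

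None of the 12 probes was called different between stressed and control rats at an adjusted p below 0.1 (limma, Benjamini-Hochberg over all tested probes), where 3.68% of all tested probes were called. At an unadjusted p below 0.05 there was 1 (Nefl), beside 20.3% of all tested probes. The median difference of the 12 probes was −0.05, with 5 above 0, while that of all tested probes was 0.07, with 60.4% above 0. The stressed and control arrays did not overlap for 1 of the 12 (Tubb3), beside 12.1% of all tested probes. The shares of members called or apart were thus not above those of the array as a whole.

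**Figure D1:**
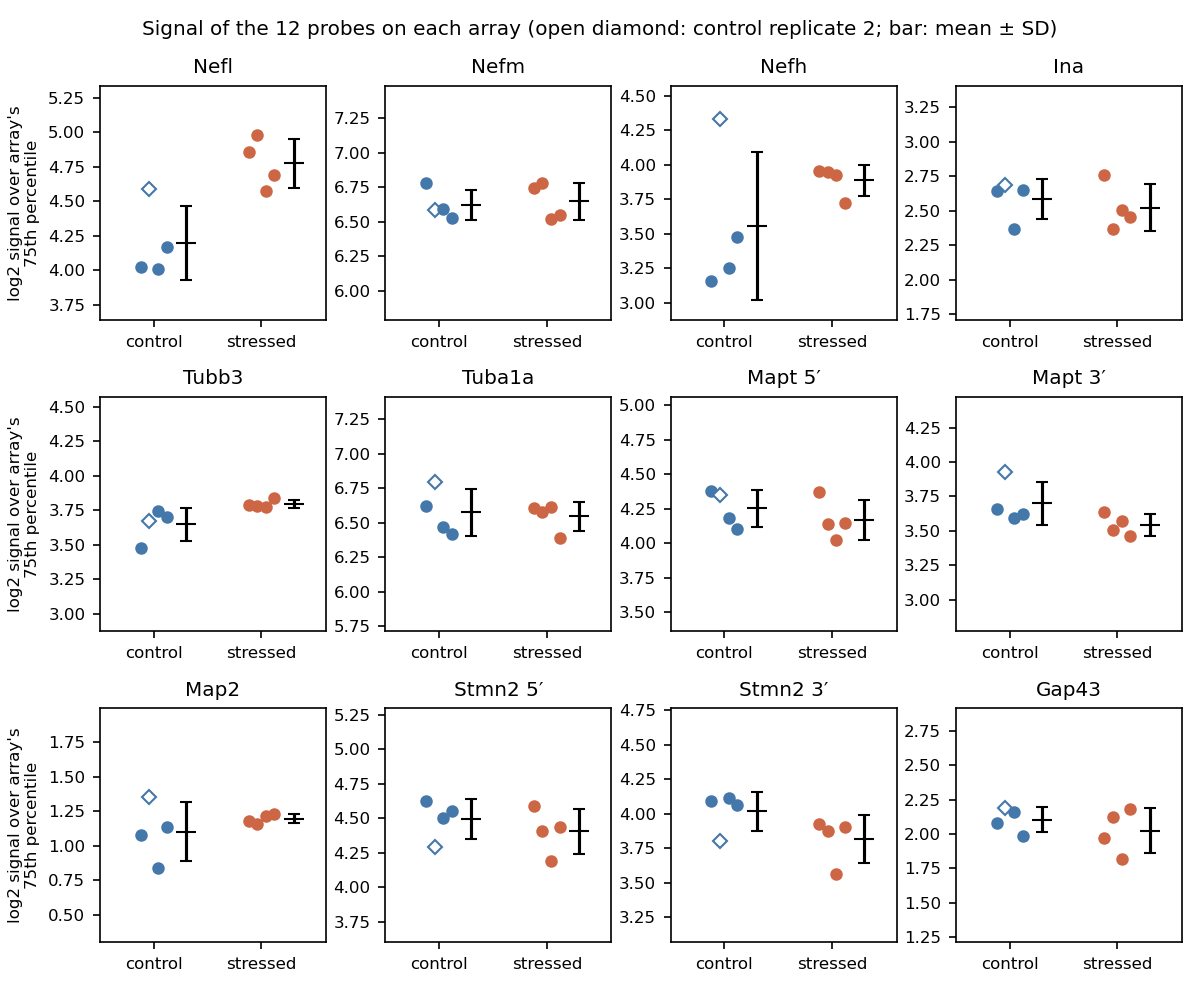
Log2 signal of each of the 12 probes on each array over the 75th percentile of that array (vertical axis, with the same span in each panel), for control (blue) and stressed (orange) rats, with the mean ± SD of 4 arrays as black bars and control replicate 2 as an open diamond. Nefl and Nefh were lower on 3 control arrays than on the 4 stressed arrays, with control replicate 2 higher than the other controls, and in the remaining panels the group means differed by −0.20 to 0.15.

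Of the neurofilament genes, Nefl, the light subunit, had the largest difference of the 10 genes. Its signal was 4.86, 4.98, 4.57 and 4.69 on the arrays of stressed replicates 1 to 4 and 4.02, 4.59, 4.01 and 4.17 on those of control replicates 1 to 4. The groups overlapped by 1 array, control replicate 2, which was just above stressed replicate 3. The means were 4.78 ± 0.18 and 4.20 ± 0.27 (SD, n = 4 each), a difference of 0.58 (SE 0.15, 95% interval 0.22 to 0.93, a fold of 1.49). This difference did not pass the threshold (limma adjusted p = 0.116, exact two-sided permutation p = 0.0571). It lay at percentile 90.5 of the differences of all tested probes.

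Without control replicate 2, the Nefl difference was 0.71 (SE 0.11) with an adjusted p of 0.00387 in limma, and the other 3 controls, at 4.01 to 4.17, lay below all stressed arrays. In that fit 42.3% of all tested probes were called, and 3 of the 12 probes were (Nefl, Nefh and the 3′ probe of Stmn2). Where the fit also took up the median 5′ minus 3′ value of each array, the Nefl difference was 0.27 (adjusted p = 0.27).

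Nefm, the medium subunit, was at 6.75, 6.78, 6.52 and 6.55 in the stressed rats and at 6.78, 6.59, 6.59 and 6.53 in the controls. The groups overlapped over nearly their whole range. The difference was 0.03 (SE 0.09, 95% interval −0.19 to 0.25, adjusted p = 0.889). It was −0.09 after quantile normalization and −0.10 after scaling to the median of the tested probes, so its sign is not settled.

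Nefh, the heavy subunit with the long phosphorylated tail, was at 3.95, 3.95, 3.93 and 3.72 in the stressed rats and at 3.16, 4.33, 3.26 and 3.48 in the controls. Control replicate 2 had the highest signal of the 8 arrays, and the other 3 controls were below all 4 stressed rats. The SD was 0.11 in the stressed group and 0.54 in the control group. The difference was 0.33 (SE 0.25, 95% interval −0.24 to 0.90, adjusted p = 0.458). Without control replicate 2 it was 0.59 (SE 0.10, adjusted p = 0.00548). With the 5′ minus 3′ covariate it was −0.29 (adjusted p = 0.0696), so that this setting turned its direction.

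The signal of Nefh followed the 5′ minus 3′ difference of the arrays, being lowest on the 3 control arrays with values of −0.30 to −0.18 and highest on control replicate 2 at 0.22. Nefl was likewise lowest on the same 3 control arrays, but control replicate 2, at 4.59, was below 3 of the 4 stressed arrays. What part the 5′ minus 3′ difference of the arrays has in these signals was not tested beyond the covariate, which is itself hard to tell from group. Control replicate 2 was the only control with a value like those of the stressed arrays. All fits with this covariate therefore separate it from group mainly by that array.

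**Figure D2:**
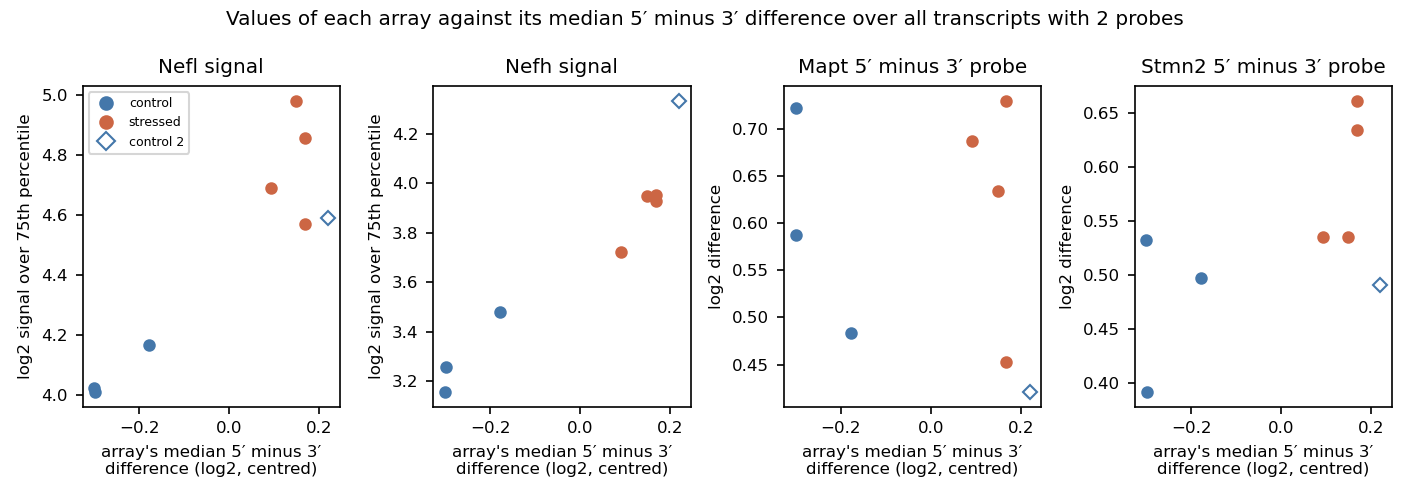
Log2 signal of Nefl and of Nefh over the 75th percentile, and log2 difference between the 5′ and the 3′ probe of Mapt and of Stmn2 (vertical axes), against the array's median 5′ minus 3′ difference over all transcripts with 2 probes, centred over the arrays (horizontal axes), with 1 point per array. Control replicate 2 (open diamond) lies to the right with the stressed arrays (orange), where Nefl and Nefh were higher than on the other 3 control arrays at the left.

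Ina, the fourth subunit of central neurofilaments, was at 2.76, 2.37, 2.50 and 2.46 in the stressed rats and at 2.64, 2.69, 2.37 and 2.65 in the controls. The lowest array of each group was at the same level. The difference was −0.06 (SE 0.11, 95% interval −0.32 to 0.20, adjusted p = 0.76). The 4 neurofilament genes thus had differences from −0.06 to 0.58, of which none was called.

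Nefl was also set against the other genes within arrays, by subtracting the signal of another gene on the same array, which removes any scaling between arrays. This comparison was chosen after the values were seen and after Nefl was known to have the largest difference, so it is a description with no test. It gives 45 pairs of genes with the brighter probe standing for Mapt and for Stmn2. Stressed and control arrays did not overlap in 6 of the 45 pairs, and all 6 were pairs with Nefl. Relative to Nefm, Nefl was 0.55 higher in stressed rats, with SDs of 0.33 in controls and 0.06 in stressed rats. The same difference was 0.64 relative to Ina, 0.61 to Tuba1a, 0.66 to Mapt, 0.48 to Map2 and 0.66 to Gap43.

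These 6 share the Nefl probe and are not separate observations. Relative to Nefh (0.25), Tubb3 (0.43) and Stmn2 (0.67) the groups overlapped. Of the probes of all other genes, most of which are dimmer than these, 32.9% did not overlap when subtracted from Nefl in the same way. Without Nefl, the differences between the other 9 genes went from −0.31 to 0.42, and all of those pairs overlapped. When control replicate 2 was left out, 17 of the 45 pairs did not overlap. Nefl was then apart from each of the other genes except Nefh, where the difference was 0.12. Nefh was 0.58 higher relative to Nefm and also apart from each gene other than Nefl, and Map2 was apart from Stmn2. The share over the probes of all other genes was not measured in this setting, where 42.3% of all tested probes were called between the groups.

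**Figure D3:**
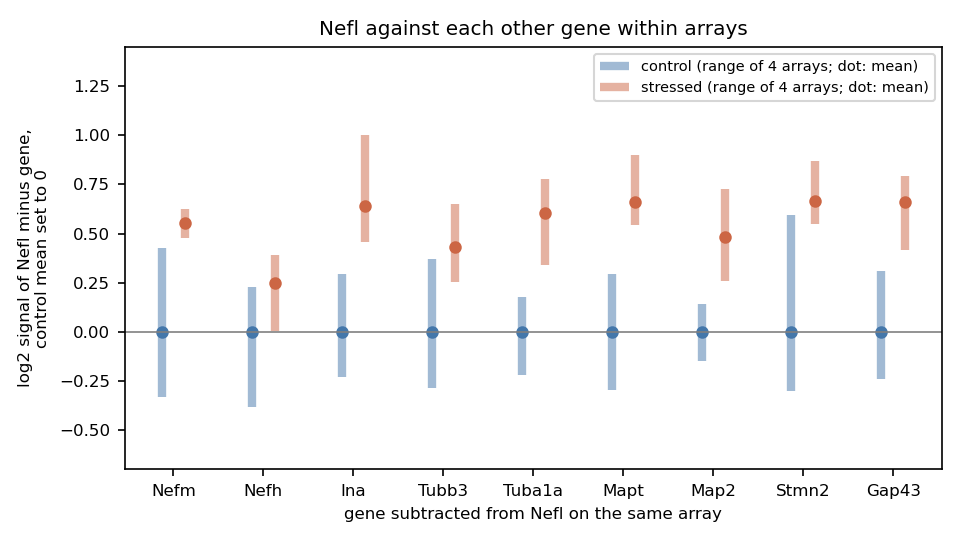
Log2 signal of Nefl minus that of each other gene on the same array (vertical axis, with the mean of the control arrays set to 0), as the range of 4 arrays with the mean as a dot, for control (blue) and stressed (orange) rats. The 2 ranges do not overlap for Nefm, Ina, Tuba1a, Mapt, Map2 and Gap43, and overlap for Nefh, Tubb3 and Stmn2.

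Of the tubulin genes, Tubb3 was at 3.78, 3.78, 3.77 and 3.84 in the stressed rats and at 3.47, 3.67, 3.74 and 3.70 in the controls. All 4 stressed arrays were above all 4 controls, though the nearest arrays of the groups were at 3.77 and 3.74. The difference was small, 0.15 (SE 0.08, 95% interval −0.03 to 0.33, a fold of 1.11), and did not pass the threshold (limma adjusted p = 0.322, exact two-sided permutation p = 0.0286). Without control replicate 2 it was 0.15 (adjusted p = 0.175), and after scaling to the median of the tested probes it was 0.02 (adjusted p = 0.911).

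Tuba1a was at 6.61, 6.58, 6.61 and 6.39 in the stressed rats and at 6.62, 6.80, 6.47 and 6.42 in the controls. The groups overlapped, control replicate 2 being the highest of the 8 arrays. The difference was −0.03 (SE 0.10, 95% interval −0.27 to 0.21, adjusted p = 0.89). Without control replicate 2 it was 0.04 (SE 0.08, limma adjusted p = 0.713). Of its 10 spots, 3 readings over the 8 arrays had been marked as outliers by the scanner software and were left out.

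Of the microtubule-associated proteins, the 5′ probe of tau was at 4.37, 4.14, 4.02 and 4.15 in the stressed rats and at 4.38, 4.35, 4.18 and 4.10 in the controls. Its 3′ probe was at 3.64, 3.50, 3.57 and 3.46 against 3.66, 3.93, 3.59 and 3.62. On both probes the groups overlapped, and on the 3′ probe control replicate 2 was again the highest array. The differences were −0.08 (SE 0.10, adjusted p = 0.653) and −0.16 (SE 0.09, 95% interval −0.37 to 0.06, adjusted p = 0.372). Without control replicate 2 they were −0.05 (SE 0.10, limma adjusted p = 0.737) and −0.08 (SE 0.06, limma adjusted p = 0.369). The 3′ probe passed the threshold in 2 of the alternative settings. It was at −0.28 after scaling to the median of the tested probes (adjusted p = 0.0911) and at −0.34 with the 5′ minus 3′ covariate (adjusted p = 0.0626).

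Map2 was at 1.18, 1.16, 1.22 and 1.23 in the stressed rats and at 1.08, 1.35, 0.83 and 1.14 in the controls. The stressed arrays lay close together inside the wider range of the controls, with SDs of 0.03 and 0.21. The difference was 0.09 (SE 0.11, 95% interval −0.16 to 0.35, adjusted p = 0.636). Without control replicate 2 the remaining controls were all below the stressed arrays, with a difference of 0.18 (adjusted p = 0.14), and with the 5′ minus 3′ covariate it was −0.11 (adjusted p = 0.535).

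Of the growth-associated genes, the 5′ probe of Stmn2 was at 4.59, 4.41, 4.19 and 4.44 in the stressed rats and at 4.63, 4.29, 4.50 and 4.56 in the controls. Its 3′ probe was at 3.93, 3.87, 3.56 and 3.90 against 4.09, 3.80, 4.11 and 4.06. Here control replicate 2 was the lowest control on both probes, and on the 3′ probe the other 3 controls were above all stressed arrays. The differences were −0.09 (SE 0.11, adjusted p = 0.661) and −0.20 (SE 0.11, 95% interval −0.46 to 0.06, adjusted p = 0.341). Without control replicate 2 the 5′ probe differed by −0.15 (SE 0.10, limma adjusted p = 0.265) and the 3′ probe by −0.27 (SE 0.10, adjusted p = 0.0763). With the 5′ minus 3′ covariate they differed by 0.06 and −0.03.

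Gap43 was at 1.97, 2.13, 1.82 and 2.18 in the stressed rats and at 2.08, 2.19, 2.16 and 1.99 in the controls. The highest arrays of both groups were at nearly the same level. The difference was −0.08 (SE 0.10, 95% interval −0.31 to 0.15, adjusted p = 0.653). The 2 growth-associated genes, Stmn2 and Gap43, were thus at slightly lower mean signals in stressed rats, with intervals that include 0.

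**Figure D4:**
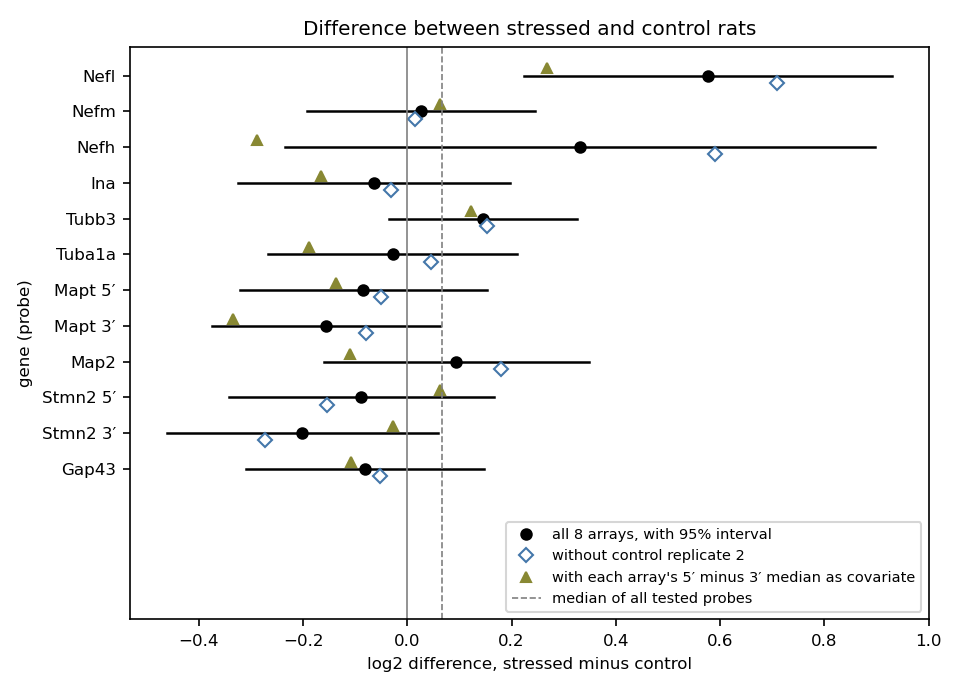
Log2 difference between stressed and control rats (horizontal axis) for each of the 12 probes (vertical axis), from the limma fit over all 8 arrays with its 95% interval (black), without control replicate 2 (open diamonds) and with the 5′ minus 3′ median of the arrays as a covariate (triangles), with the median of all tested probes as a dashed line at 0.07. The interval of Nefl lies above 0 and those of the other 11 probes include 0, and the estimates for Nefh run from −0.29 to 0.59 over the 3 fits.

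For Mapt and Stmn2, probes at both ends of the transcript allowed the 5′ minus 3′ difference to be compared between the groups. Over the 1887 accessions whose outermost probes lay 300 or more bases from each other, this difference was higher in stressed rats by a median of 0.28, above 0 in 80.3%, and 8.53% were called at an adjusted p below 0.1. Mapt and Stmn2 were not among the transcripts called.

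For Mapt, whose probes are 3871 bases apart, the 5′ probe exceeded the 3′ probe by 0.73, 0.63, 0.45 and 0.69 in the stressed rats and by 0.72, 0.42, 0.59 and 0.48 in the controls. The groups overlapped, and the change was 0.07 (SE 0.12, limma adjusted p = 0.673, exact two-sided permutation p = 0.429). For Stmn2, with probes 975 bases apart, the values were 0.66, 0.53, 0.63 and 0.53 against 0.53, 0.49, 0.39 and 0.50. The stressed arrays were all just above the controls, and the change was 0.11 (SE 0.10, limma adjusted p = 0.439, exact two-sided permutation p = 0.0286). That exact p is the smallest possible and comes with any groups that do not overlap. The change lay at percentile 31.0 of those of all such accessions, and how many of those did not overlap was not counted. Control replicate 2, which had the highest 5′ minus 3′ median of the 8 arrays, had the lowest value of the 8 for Mapt (0.42) and was among the controls for Stmn2 (0.49). Leaving it out gave changes of 0.03 for Mapt (adjusted p = 0.828) and 0.12 for Stmn2 (adjusted p = 0.256).

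For the neurofilament triplet, the mean of the centred signals of Nefl, Nefm and Nefh was taken on each of the 8 arrays. It was 0.24, 0.29, 0.06 and 0.04 on the stressed arrays and −0.29, 0.22, −0.33 and −0.22 on the control arrays, so that control replicate 2 lay with the stressed arrays. Of 13382 other named genes, the 5 with the smallest mean absolute distance to it were Arl1 (0.032), Pitpnb (0.041), Grm2 (0.047), Il18r1 (0.047) and Elp2 (0.048), beside a median distance of 0.24 over all of them. Of the 10 members, Map2, Nefl and Nefh were nearest to it, each at 0.13 and at ranks of 1160, 1372 and 1429 among those genes. Nefm was at 0.21 and Stmn2, the farthest, at 0.29. A probe with the same signal on all arrays would also lie at 0.21, so the mean describes Nefl and Nefh and not Nefm. Nefl and Nefh are part of the mean, which in itself brings them nearer to it. The distance reads the size of a swing as well as its shape, and Nefl and Nefh, both lowest on control replicates 1, 3 and 4, swung more than the mean of the 3 subunits.

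Other genes of the cytoskeleton were counted with 1 probe a gene, the brightest, where 3.6% of all gene names tested were called, 19.9% had an unadjusted p below 0.05 and the median difference was 0.05. Of 18 tubulin isotypes tested, none was called and none had an unadjusted p below 0.05 in limma, with a median of −0.03. The largest difference was that of Tubd1, the delta-tubulin of centrioles, at 0.41 (SE 0.22, adjusted p = 0.319), and the lowest that of Tube1, the epsilon-tubulin, at −0.15 (SE 0.08, adjusted p = 0.305). Of the 10 intermediate filament genes, which include the 4 neurofilament genes, none was called and 2 had an unadjusted p below 0.05, with a median of 0.13. They went from 0.82 for Gfap, the filament of astrocytes (SE 0.43, adjusted p = 0.318), to −0.26 for desmin (Des, SE 0.44, adjusted p = 0.75). The study reported a significant decrease of GFAP in stressed rats by quantitative RT-PCR, which is the other direction from the uncalled Gfap difference here. Prph, a filament of motor and sensory neurons, differed by −0.24 (SE 0.13, adjusted p = 0.341).

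Of the 4 stathmins, 1 was called. Stmn1, the widely expressed member that like Stmn2 binds free tubulin, rose from 1.36 ± 0.14 in controls to 1.90 ± 0.07 in stressed rats (SD, n = 4 each), a difference of 0.53 (SE 0.09, adjusted p = 0.0513), and the groups did not overlap. Stmn3 and Stmn4 differed by −0.19 and −0.04. Of 12 genes of axon growth, 1 was called. Nrn1 (neuritin, which promotes the growth of neurites) rose from −0.55 ± 0.21 to 0.11 ± 0.08 (SD, n = 4 each), by 0.67 (SE 0.11, adjusted p = 0.0537). Both calls were lost on leaving out any 1 array other than control replicate 2, with adjusted p of 0.106 to 0.191 for Stmn1 and 0.13 to 0.175 for Nrn1, while both differences stayed above 0. Those fits called at most 88 of all tested probes, so the loss is not particular to these genes.

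Of 18 microtubule-associated proteins none was called and 4 had an unadjusted p below 0.05 (median 0.04). The microtubule-associated proteins ran from 1.46 for Map1b (SE 0.69, adjusted p = 0.277) to −0.32 for Dcx, doublecortin of young neurons (SE 0.09, adjusted p = 0.124). Of 11 motors of axonal transport none was called and 2 were below 0.05 unadjusted (median 0.11), from 1.49 for the kinesin Kif5b (SE 0.46, adjusted p = 0.149) to −0.25 for the dynein heavy chain Dync1h1 (SE 0.07, adjusted p = 0.144). Of 13 kinases of tau and neurofilaments none was called and 6 were below 0.05 unadjusted (median 0.13), with the lowest difference, −0.34, for Mark2. Of 13 tubulin folding and modifying enzymes none was called and 2 were below 0.05 unadjusted (median 0.00), from 0.69 for Ttl, which adds tyrosine to tubulin, to −0.31 for Tbcd.

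On the 7 arrays without control replicate 2, 40.4% of all gene names tested were called and their median difference was 0.08. In that fit 3 of the 18 tubulin isotypes were called higher and 1 lower (median 0.05), and 3 of the 10 intermediate filament genes were called higher (median 0.12). Of the 18 microtubule-associated proteins 4 were called higher and 2 lower (median 0.09), of the 11 motors 6 and 1 (median 0.31), of the 13 kinases 6 and 1 (median 0.22), and of the 13 folding and modifying enzymes 5 and 1 (median −0.01). Of the 4 stathmins 1 was called higher and 1 lower (median −0.06), and of the 12 axon growth genes 3 and 1 (median 0.01).

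Levels of cell type markers are given beside these results, since axons, myelin and roots share the segment. Of 15 neuron markers tested 1 was called, the neuronal enolase Eno2, which fell by 0.37 on the log2 scale (SE 0.07, adjusted p = 0.066). The call was lost on leaving out any 1 array other than control replicate 2, with differences of −0.39 to −0.33, in fits that called at most 88 of all tested probes. The list of neuron markers had a median of −0.05, and its mean signal was 1.96 to 2.08 on the control arrays and 1.91 to 2.11 on the stressed arrays. Of 7 motor neuron markers none was called (median −0.19), nor of 8 tested markers of dorsal root ganglion neurons (median −0.08), whose mean signal was −3.63 to −3.28 and −3.53 to −3.38, while Mrgprd did not pass the filter on dim probes.

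Of 10 oligodendrocyte markers, 9 had a difference above 0, beside 58.2% of all gene names tested. The 1 called was Mog, a protein of the outer myelin sheath, at 0.90 (SE 0.18, adjusted p = 0.0698). The mean signal of the 10 markers was 2.57 to 3.32 on the control arrays, with control replicate 2 at 3.32, and 3.07 to 3.52 on the stressed arrays. The median was 0.44 for this list, 0.24 for 5 oligodendrocyte precursor markers, 0.24 for 9 astrocyte markers, 0.02 for 9 microglia markers, −0.31 for 7 markers of meninges and fibroblasts and −0.10 for 5 of red blood cells, with no call in these last 5 lists. The endothelial list of 7 (median 0.12) had 1 call, Pecam1, at 0.41 (SE 0.09, adjusted p = 0.0885). The calls of Mog and Pecam1 were also lost on leaving out any 1 array other than control replicate 2, with differences of 0.78 to 0.99 and 0.35 to 0.46, in fits that called at most 88 of all tested probes. Of 7 Schwann cell markers (median −0.45, mean signal −4.24 to −0.93 in controls and −3.73 to −1.76 in stressed rats) 1 was called, Cdh19, which was well above background on the 4 stressed arrays and on none of the controls. Cdh19 thus passed the filter only through the group where it was higher, and with the normexp correction its difference was not called (adjusted p = 0.667). In the fit without control replicate 2, 40.4% of all gene names tested were called. Called higher were 6 of the 10 oligodendrocyte markers (median 0.59), 3 of the 5 precursor markers (0.39), 5 of the 9 astrocyte markers (0.30) and 1 of the 9 microglia markers (0.08). Of the 15 neuron markers 3 were called higher and 3 lower (median −0.09), and of the 7 endothelial markers 2 and 1 (0.24). The motor neuron and Schwann cell lists had 1 and 1 each (−0.09 and −0.63). Of the ganglion markers 1 was called lower (−0.01), while meninges (−0.39) and red blood cells (−0.01) had no call. The part of these markers in the signals of the neurofilament and tubulin genes was not tested.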

How the data were processed

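Lumbar cord RNA of 8 rats (4 stressed, 4 control) was hybridised to 1-colour Agilent arrays. Per the file headers, the deposited intensity of each spot came from Agilent Feature Extraction 10.7.3.1, which subtracted background and detrended within each array, and the deposited table of values holds the same intensity rounded. No normalization between arrays was found. The study named dChip for its own calls.

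Control spots (4259) were dropped and outlier spots set to missing. The log2 processed signal minus the 75th percentile of the array was averaged over spots of a probe. Probes well above background on at least 4 of 8 arrays were tested with limma 3.58.1 in R 4.3.3, without covariates, with Benjamini-Hochberg adjustment over the whole set tested (threshold 0.1). Single values had an exact permutation test over 70 choices of arrays. Its smallest possible p, 0.0286, is that of any value whose groups do not overlap. The fit was tested on simulated data.

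Members, gene lists and tests were chosen with earlier results of these data known. The text names all members, of each list the called genes or, where none was, those with the largest rise and fall (1 of which is not reported here), and the 5 genes nearest to the triplet. Prph, Stmn3 and Stmn4 were named besides as relatives of the members, after their values were seen. Nothing beyond the label of each rat says that samples were processed separately, so p values measure the spread between these samples. The number of arrays limits the precision. The alternatives covered background correction, scaling, the filter, the variance model, array weights, the replicate block, a 5′ minus 3′ covariate and leaving out each array. The miRNA arrays were not analysed here.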

Additional observations from a re-analysis of the deposited data

Results flagged for a closer look

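In 28 groups of 4 arrays (12 probes and 2 differences between probes, in each of 2 groups), 5 had an array far from the other 3 by the gap to its nearest neighbour as a share of the range of the group. Chance alone gives about 1 in 20 groups. Nefh on stressed replicate 4, at 3.72 beside a nearest value of 3.93, had a share of 0.892. Ina on control replicate 3, at 2.37 beside 2.64, had a share of 0.862. Tuba1a on stressed replicate 4, at 6.39 beside 6.58, had a share of 0.855. The 3′ probe of Stmn2 stood apart on stressed replicate 3, at 3.56 beside 3.87 (share 0.857), and on control replicate 2, at 3.80 beside 4.06 (share 0.837). All 5 lay below the other arrays of their group. The high Nefh value of control replicate 2, 4.33, did not pass this limit, since the other 3 controls were themselves spread from 3.16 to 3.48.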

How the results depend on the processing

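The number of the 12 probes called, 0 in the fit reported, was 1 after quantile normalization, 1 with no filter on dim probes and 1 with a variance trend and robust estimation (Nefl each time). Of all tested probes, 1166 of 23677, 3257 of 30357 and 1331 of 23677 were called in these settings. After scaling to the median of the tested probes 2 of the 12 were called (Nefl and the 3′ probe of Mapt), beside 1239 of all 23677. With the 5′ minus 3′ covariate 2 were called (Nefh and the 3′ probe of Mapt), beside 2303 of all 23677. With array weights 4 were called (Nefl, Nefh, Map2 and the 3′ probe of Stmn2), beside 11979 of all 23677. The weight was 0.11 for control replicate 2 and 0.78 to 2.72 for the other arrays, so this setting comes near to leaving that array out. Leaving out 1 array gave 0 to 3 of the 12, the 3 without control replicate 2, where 42.3% of all tested probes were called. The median difference of the 12, −0.05, was −0.17 after median scaling and 0.030 with array weights, and between −0.06 and −0.01 on leaving out 1 array.

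The direction turned for Nefm after quantile normalization (−0.090) and median scaling (−0.10), for Map2 after median scaling (−0.031) and with the covariate (−0.11), for Nefh (−0.29) and the 5′ probe of Stmn2 (0.063) with the covariate, and for Tuba1a with array weights (0.066). On leaving out 1 array Nefm went from −0.018 to 0.080 and Tuba1a from −0.082 to 0.045. Median scaling moves the differences of all probes by the same amount, so the turns of Nefm and Map2 in that setting are not particular to them. The cause of the other turns was not tested, and those with the covariate rest mainly on control replicate 2. Nefl stayed above 0 in all 18 alternatives, from 0.27 to 0.77, and was called in 6, with adjusted p from 0.00136 to 0.308. Those 6 include array weights and the fit without control replicate 2, which both lessen the part of that array. Ina, both Mapt probes, the 3′ probe of Stmn2 and Gap43 stayed below 0 and Tubb3 above 0. The 5′ minus 3′ changes of Mapt (0.03 to 0.13) and Stmn2 (0.08 to 0.13) were not called in any alternative run. Stmn2 could not be measured with probes at least 1000 bases apart.

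Of all tested probes 872 were called, 76.7% of them higher. The number was 231 with normexp, 1166 (61.3% higher) with quantile normalization, 1239 (48.3% higher) with median scaling, 3257 without a filter, 1331 with a variance trend, 2303 with the covariate, 11979 with array weights and 0 to 10015 without 1 array. Median scaling moved the median of all differences from 0.07 to −0.06. The samples of both groups carry replicate numbers 1 to 4, but the deviations of same-numbered samples correlated at 0.10, 0.12, −0.09 and 0.31, so the numbers were not taken to pair them. With the replicate block none of the 12 was called (limma, 1 at an unadjusted p below 0.05), the Nefl difference of 0.58 had an adjusted p of 0.201, and 0 of all probes were called (4321 unadjusted).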
